A study of Mus musculus with 12 samples.

Results

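Zscan4c, Zscan4d, Zscan4f, Tcstv1, Tcstv3 and Gm2016 are genes of the 2-cell-like state, and they were followed here across mouse embryonic stem cells (ESC) and the sorted progeny of day 3 embryoid bodies. The 6 genes were selected on measured values of these libraries, because they stood among the genes with far lower counts after differentiation than in ESC. Each name was matched to the assembled loci that carry it, and each matched 1 locus, so the members are 6 of 80012 counted loci. All 6 are protein-coding and belong to the 17922 loci that entered the tests.

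In the ESC line used, EGFP was placed in the Eomes locus as a reporter, on a C57BL/6 background, and all libraries come from this 1 line. ESC were kept on mouse embryonic fibroblast feeders in medium with serum and leukaemia inhibitory factor (LIF) and were collected at day 0. Embryoid bodies grown in hanging drops were sorted at day 3 by EGFP fluorescence into Eomes-negative (Eo-) and Eomes-positive (Eo+) cells. Each of the 3 groups has 4 libraries of poly(A) RNA with the replicate numbers 1, 2, 5 and 6, which the study describes as separate differentiation sets. The sorted cells therefore differ from ESC in culture, time and sorting together, and these cannot be told apart. Libraries held between 648413022 and 837308168 counts over the loci. A count of 3 in a library was worth between 0.00354 and 0.00467 counts per 1000000 counts (CPM), the unit used below, in which each count is divided by its library size after scaling by trimmed means (TMM). In every one of the 12 libraries more loci held a count of exactly 4 (1728 to 2143 loci) than of exactly 3 (689 to 1632 loci), so single counts are not treated as independent fragments, and the counting intervals given below cover counting error only and are too narrow. Eomes itself averaged 46.5 ± 8.82 CPM in ESC, 137 ± 22.2 CPM in Eo- and 527 ± 96.9 CPM in Eo+ (SD, n = 4 each).

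Cultured ESC contain at any moment a small number of cells that switch on genes normally used by the embryo at the 2-cell stage, when the zygotic genome is first transcribed. Zscan4 proteins, which combine a SCAN domain with zinc fingers, mark these cells and are known for a role in telomere lengthening and genome stability. The state is driven by the homeobox factor Dux, is transient, and is lost as ESC leave pluripotency. The Tcstv genes are a small family first described as variably transcribed at the 2-cell stage, and Gm2016 lies in a cluster of genes that resemble the translation initiation factor Eif1a. The genes of each family stand in tandem arrays of near-identical copies. In bulk RNA, fewer cells in the state and less RNA per such cell cannot be told apart.

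The files' coordinates are on mm10, which has the same chromosomes as the GRCm38 reference used here. Zscan4c lies on chromosome 7 from 11005722 to 11010547 on the plus strand, Zscan4d from 11161374 to 11166182 on the minus strand and Zscan4f from 11397915 to 11402741 on the plus strand. Tcstv3 lies on chromosome 13 from 120316652 to 120318256 on the plus strand. The locus counted as Tcstv1, on the minus strand of chromosome 13 from 119828089 to 119913629, also holds AF067063 and Gm21761. The locus counted as Gm2016, on the plus strand of chromosome 12 from 87874072 to 87980225, also holds Gm2046. Its values, like those of Tcstv1, are thus sums over neighbouring copies.

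The start of the 3 Zscan4 loci is shown because they were nearly the same promoter 3 times over. RefSeq promoter windows on GRCm38.p6 (250 bases before to 50 after a gene's start) were found for 3 of the 6 members and for 5 of the 9 genes in the members' loci. Each sequence below runs 5′ to 3′ on the strand of its gene and ends at the base before the assembled locus, at chr7:11005541-11005721 (plus strand) for Zscan4c, chr7:11166183-11166363 (minus strand) for Zscan4d and chr7:11397734-11397914 (plus strand) for Zscan4f. Capitals mark TGATTNAAT, a part of the motif known for Dux, then TATAAA and CCAAT.
Zscan4c: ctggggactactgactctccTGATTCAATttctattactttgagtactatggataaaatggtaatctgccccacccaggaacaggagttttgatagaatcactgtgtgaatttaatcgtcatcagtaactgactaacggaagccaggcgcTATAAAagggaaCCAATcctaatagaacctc
Zscan4d: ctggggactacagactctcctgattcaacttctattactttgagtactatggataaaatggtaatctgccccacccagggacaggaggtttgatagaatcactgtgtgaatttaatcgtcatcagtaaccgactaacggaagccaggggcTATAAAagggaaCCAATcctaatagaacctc
Zscan4f: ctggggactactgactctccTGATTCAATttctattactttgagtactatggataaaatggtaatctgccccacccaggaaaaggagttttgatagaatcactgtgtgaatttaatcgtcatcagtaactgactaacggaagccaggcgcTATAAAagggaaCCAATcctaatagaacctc

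Over these 181 bases Zscan4c and Zscan4f were identical at 180 bases, and Zscan4c and Zscan4d at 175. With positions counted from the first base shown, the 1 difference between Zscan4c and Zscan4f was C82A. Of the 6 differences between Zscan4c and Zscan4d, T29C fell on the last base of TGATTNAAT, so the motif was matched in Zscan4c and Zscan4f and not in Zscan4d. In all 3 genes the first base of TATAAA stood 31 bases before the first base of the assembled locus.

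The same motif stood before the start of other genes of the members' loci. It is shown for Gm21761, which shares the Tcstv1 locus (chr13:119913630-119913687, minus strand), for its relative AF067061 (chr13:120262876-120262933, plus strand) and for Gm2046, which shares the Gm2016 locus (chr12:87970578-87970637, plus strand), with TGATTNAAT in capitals.
Gm21761: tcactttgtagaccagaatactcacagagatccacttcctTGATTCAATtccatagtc
AF067061: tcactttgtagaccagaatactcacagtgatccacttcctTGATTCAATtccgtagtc
Gm2046: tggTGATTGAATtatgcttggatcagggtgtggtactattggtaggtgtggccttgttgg

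Gm21761 and AF067061 were identical at 56 of these 58 bases. On either strand TGATTNAAT was found for 4 of the 5 genes of the members' loci that have a promoter window. It was found for 5 of the 21 other 2-cell-like genes with a window and in 0.718% of all 32851 windows. TATAAA was found for 3 of the 5 genes, all of them Zscan4 genes, and in 13.6% of all windows. CCAAT was found for 4 of the 5 genes and in 37.4% of all windows. TGCACAC, a motif bound by ZSCAN4 itself, was found for none of the 5 genes and in 4.4% of all windows. A gene counts here if any of its windows matches, whereas the shares of all windows are by window. None of the 4 motifs contains another. Such a match describes the letters of a window, and windows of tandem copies are not independent of each other.

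The transcripts were also largely shared, which bears on every value below, since alignments to more than 1 place were set aside before counting. Of the distinct 100-base windows (the read length) of the reference transcripts, 80.6% of those of Zscan4f, 72.8% of those of Zscan4c and 29.6% of those of Zscan4d also occurred in the transcripts of another gene. Zscan4c and Zscan4f shared 1204 such windows with each other, and the pseudogene Zscan4-ps2 shared 1296 windows with Zscan4f. Tcstv1 shared 29.8% of its windows, mostly with Gm20767 and Gm21731, and Tcstv3 shared 7.79%. Gm2016 shared 64.7%, of which 909 of 1667 windows with Gm5662 formed the main part. Between 22.4% and 26.2% of the alignments of a library were set aside as not unique. Counts of single copies are for this reason uncertain, and the levels can understate copies with few unique stretches, so sums over the family are given beside them.

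In ESC the 6 loci together reached 26.8, 49.6, 35.3 and 63.0 CPM in replicates 1, 2, 5 and 6, a mean of 43.7 ± 15.9 CPM (SD, n = 4). In Eo- the sum was 0.695, 0.616, 1.28 and 1.69 CPM, and in Eo+ 0.0255, 0.00776, 0.0604 and 0.0498 CPM. All 4 ESC libraries stood above all 4 Eo- libraries, and these above all 4 Eo+ libraries. The Eo- mean (1.07 ± 0.508 CPM) was 2.45% of the ESC mean, and the Eo+ mean (0.0359 ± 0.0238 CPM) was 0.0822% of it. The Eo+ share depends on the family: Tcstv3, with 1.47% of the members' pooled counts in ESC, held 66.3% of them in Eo+, and the Eo+ mean was 0.00895% of ESC for the 3 Zscan4 loci and 0.387% for the 2 Tcstv loci. The share of the Zscan4 loci rests mainly on replicate 5, which held 7 of their 8 pooled Eo+ counts. With the other counted genes of the Zscan4 and Tcstv families added, the sum was 2.38% of ESC in Eo-. In Eo+ it was 0.0395, 0.0129, 0.122 and 0.0623 CPM, a mean of 0.116% of ESC, and 0.0748% without replicate 5. These are the differences on which the genes were selected, and no test is attached to them.

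**Figure D1:**
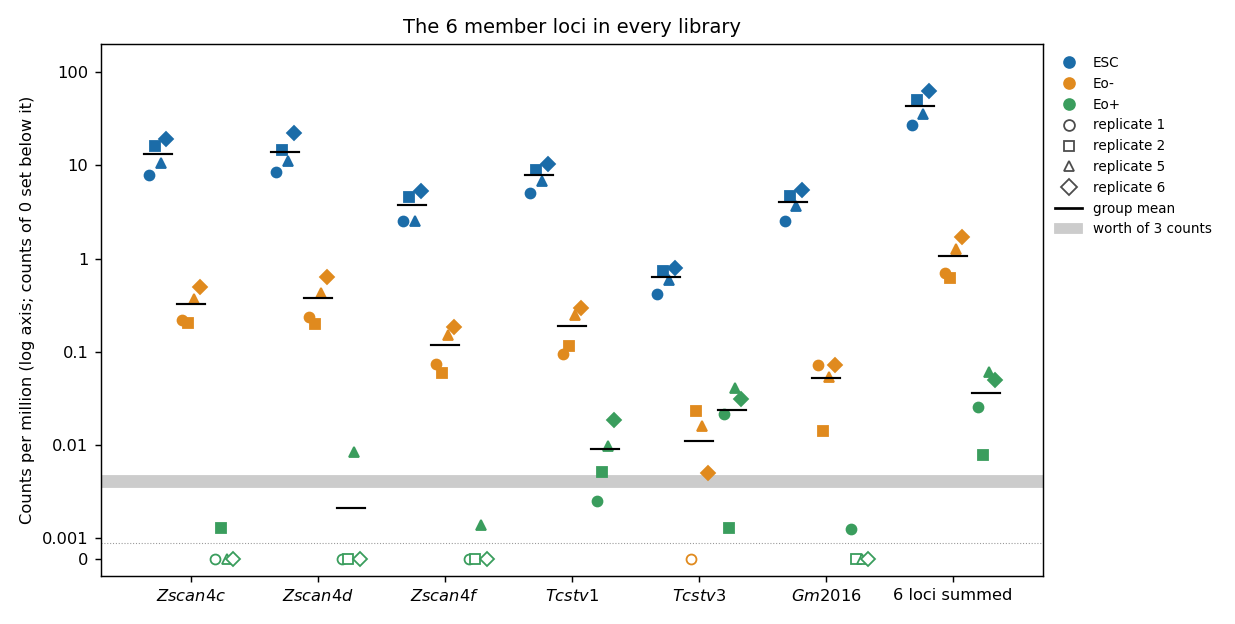
CPM (log axis) of each member locus and of their sum in the 12 libraries, coloured by group and shaped by replicate number, with group means as black bars. Open symbols on the lowest line are counts of 0 and the grey band is the worth of 3 counts; every ESC point stands above every Eo- and Eo+ point of its gene, and only Tcstv3 has Eo+ points above Eo- points.

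Zscan4c was counted 6424, 12024, 8133 and 12582 times in ESC replicates 1, 2, 5 and 6, which is 7.83, 15.9, 10.5 and 19.0 CPM. In Eo- it was counted 185, 159, 277 and 391 times, and in Eo+ 0, 1, 0 and 0 times. A single count was thus left over the 4 Eo+ libraries. Eo- averaged 0.323 ± 0.139 CPM, 2.43% of the 13.3 ± 5.05 CPM of ESC. The pooled ESC level was 37869 times the pooled Eo+ level, with a 95% exact Poisson interval of 6797 to 1495760 that shows how little 1 count fixes. This interval and the later ones are on the pooled count of the sorted fraction, with the ESC level taken as fixed.

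Zscan4d, the copy on the opposite strand, had a mean in ESC within 1 SD of that of Zscan4c, at 8.39, 14.7, 11.1 and 22.0 CPM (mean 14.1 ± 5.91). It was counted 200, 156, 320 and 497 times in Eo- (mean 0.375 ± 0.200 CPM), and 0, 0, 6 and 0 times in Eo+. All 6 Eo+ counts fell in replicate 5. The pooled ESC level was 6637 times that of Eo+ (95% exact Poisson interval 3049 to 18086).

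Zscan4f was the lowest of the 3, at 2.54, 4.54, 2.52 and 5.34 CPM in ESC (mean 3.73 ± 1.43). Eo- libraries held 63, 46, 114 and 145 counts (mean 0.118 ± 0.0608 CPM), and Eo+ libraries 0, 0, 1 and 0. The 1 count was again in replicate 5. Replicate 5 also has the lowest Zscan4f count relative to Zscan4c in ESC, a ratio of 0.239 against 0.281 to 0.324 in the other ESC libraries.

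The pooled ESC level was 40.5 times that of Eo- for Zscan4c (95% exact Poisson interval 38.1 to 43.1), 36.8 times for Zscan4d (34.7 to 39.0) and 31.3 times for Zscan4f (28.2 to 34.7). Zscan4d had between 0.924 and 1.16 counts per count of Zscan4c in the ESC libraries, and between 0.981 and 1.27 in the Eo- libraries. Zscan4f had between 0.239 and 0.324 counts per Zscan4c count in ESC, and between 0.289 and 0.412 in Eo-. The ranges of the groups overlap for both ratios, and whether the copies differ in their fall was not tested over libraries. Per kilobase of exon (FPKM, here CPM divided by the exon length of the locus in kb), the ESC level averaged 5.79 FPKM for Zscan4c (3.41 to 8.25 over the 4 libraries), 5.14 FPKM for Zscan4d (3.07 to 8.05) and 1.54 ± 0.588 FPKM for Zscan4f. The libraries of Zscan4c and Zscan4d overlapped, and all libraries of Zscan4f lay below both.

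Tcstv1 stood at 5.10, 8.97, 6.84 and 10.4 CPM in ESC (mean 7.83 ± 2.34). In Eo- it was counted 80, 89, 184 and 233 times (mean 0.188 ± 0.0993 CPM), which is 2.41% of ESC. Unlike the Zscan4 loci it kept counts in every Eo+ library, namely 2, 4, 7 and 12, and the highest Eo+ library (0.0187 CPM) stayed below the lowest Eo- library (0.0944 CPM). Its pooled ESC level was 895 times that of Eo+ (95% exact Poisson interval 606 to 1383).

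Tcstv3 was the lowest member in ESC, at 0.415, 0.741, 0.589 and 0.802 CPM (mean 0.636 ± 0.173). Its Eo- counts were 0, 18, 12 and 4, and its Eo+ counts 17, 1, 29 and 20 in replicates 1, 2, 5 and 6. The sorted fractions overlapped, and Eo+ stood above Eo- in 3 of the 4 sets. The means of 0.0111 ± 0.0105 CPM in Eo- and 0.0237 ± 0.0169 CPM in Eo+ differed by less than the SD of Eo+ but by more than that of Eo-. Both fractions lay below all ESC libraries, at 1.74% and 3.73% of the ESC mean.

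Gm2016 was at 2.51, 4.72, 3.70 and 5.41 CPM in ESC (mean 4.09 ± 1.26). Eo- counts were 61, 11, 40 and 57 (mean 0.0532 ± 0.0274 CPM), and 1 count was left in Eo+, in replicate 1. Eo- was at 1.30% of ESC, the lowest share among the members. Per length the ESC means were 2.42 ± 0.723 FPKM for Tcstv1, 1.86 ± 0.574 for Gm2016 and 0.587 ± 0.159 for Tcstv3. The first of these differed from the second by less than the SD, and Tcstv3 lay below both. Among the 17922 tested loci the ESC level per length of the members ranked above 34.4% (Tcstv3) to 67.8% (Zscan4c) of loci.

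The order of the groups was therefore ESC, Eo-, Eo+ for 5 members, with no overlap between neighbours, and for Tcstv3 the place of Eo- and Eo+ was not resolved. On the log2 scale of the fit over all loci (limma voom with TMM scaling, given as description), differences from ESC in Eo- ran from -5.05 ± 0.43 (SE) for Zscan4f to -6.69 ± 0.97 for Tcstv3. In Eo+ they ran from -5.34 ± 0.83 for Tcstv3 to -13.7 ± 1.17 for Zscan4c, where the fitted value of loci at 0 in several libraries depends on the offset added to counts. Past an adjusted p of 0.05 in the direction of lower levels were 6 of 6 members in Eo+ vs ESC (background 36.1% of all tested loci), 6 of 6 in Eo- vs ESC (background 31.3%) and 5 of 6 in Eo+ vs Eo- (background 24.6%). Without overlap between the libraries of the groups and lower were 6 (background 32.3%), 6 (background 28.2%) and 5 (background 23.6%). No member was past the threshold upward, against backgrounds of 35.8%, 30.9% and 23.0%. The members were selected on the first of these contrasts and the other contrasts share its libraries, so the counts carry no weight as tests. All 6 members passed the filter on low values (a mean above 0.1 FPKM in at least 1 group), 4 of them through ESC alone and Zscan4c and Zscan4d through ESC and Eo-, so lower levels after differentiation were partly set by the filter.

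Members also moved together between the ESC libraries themselves, which the selection did not use. Zscan4c, Zscan4d, Tcstv1, Tcstv3 and Gm2016 were lowest in replicate 1, then 5, then 2, and highest in replicate 6, and Zscan4f differed only in that replicate 5 (2.52 CPM) stood below replicate 1 (2.54 CPM). The highest ESC library was 1.93 (Tcstv3) to 2.62 (Zscan4d) times the lowest, where the median over tested loci with counts in all 4 libraries was 1.40. The order 1, 5, 2, 6 was found in 5.43% of all tested loci, in 5 of 6 members and in 15 of 26 tested loci of the list of other 2-cell-like genes described below. With library totals in place of TMM it was 4.95% of loci and the same number of members, and with DESeq2 size factors 5.65%. Members of one family share many 100-base windows, as given above, and the member loci of chromosomes 7, 12 and 13 shared none with each other. The part of shared reads in the common order was not tested. In Eo-, 3 of 6 members and 1.95% of tested loci had the order 2, 1, 5, 6, and the 3 were the Zscan4 copies, which share windows with each other.

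**Figure D2:**
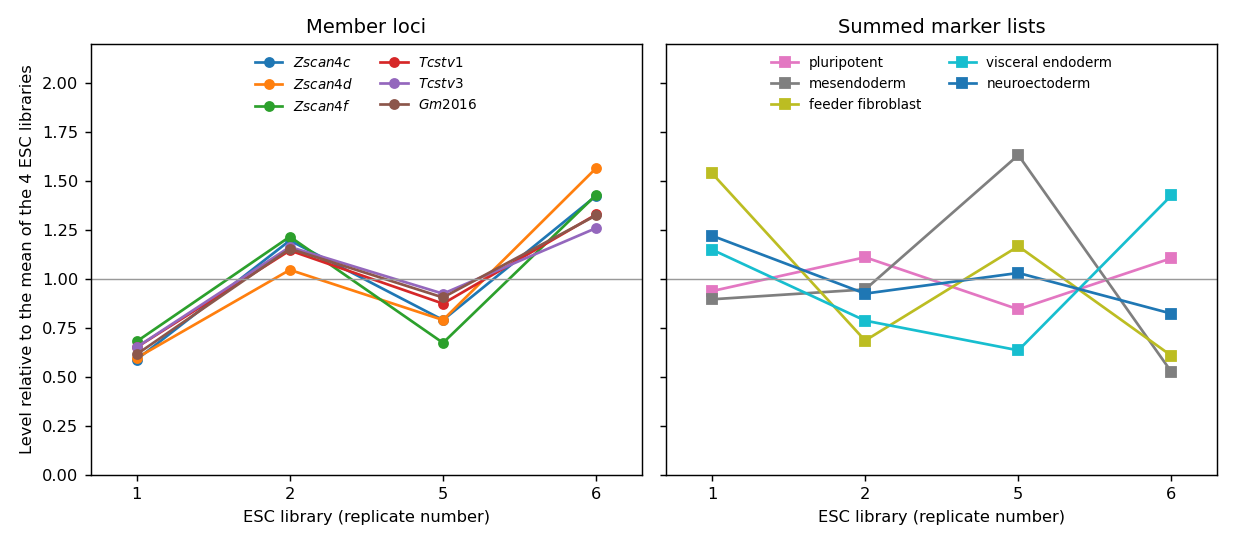
Level in each ESC library divided by the mean of the 4 ESC libraries, for the 6 member loci (left) and for the summed CPM of 5 marker lists (right), with the replicate number on the x axis; lines join points of 1 gene or list and imply no order. Member loci are at 0.588 to 0.681 of their mean in replicate 1 and at 1.26 to 1.57 in replicate 6, and the feeder fibroblast and neuroectoderm lists run the other way.

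Markers of several cell types were counted in the same libraries. The 9 feeder fibroblast markers (Col1a1, Col1a2, Col3a1, Postn, Thy1, Lum, Dcn, Pdgfrb and Fbln2) were all detected and summed to 309, 137, 234 and 122 CPM in ESC replicates 1, 2, 5 and 6, the reverse of the members' order. In Eo- they summed to 32.6 to 43.2 CPM and in Eo+ to 42.3 to 84.1 CPM. The 8 pluripotency markers (Pou5f1, Nanog, Sox2, Zfp42, Esrrb, Klf4, Tfcp2l1 and Dppa5a) summed to 4047 to 5321 CPM in ESC, with the order 5, 1, 6, 2, and to 37.2% of the ESC mean in Eo- and 15.0% in Eo+. The summed members were at 2.45% and 0.0822% in these fractions. The 7 mesendoderm markers (Eomes, T, Mixl1, Gsc, Lhx1, Mesp1 and Foxa2) summed to 94.0 to 292 CPM in ESC, 262 to 526 CPM in Eo- and 1806 to 3070 CPM in Eo+, highest in the fraction labelled Eo+. The 6 visceral endoderm markers (Ttr, Afp, Apoa1, Apoa4, Amn and Cubn) summed to between 3.08 and 6.92 CPM in ESC and between 2.25 and 9.98 CPM in Eo-, and ranged from 2.30 to 46.6 CPM in Eo+, where replicate 1 was highest. The 5 neuroectoderm markers (Pax6, Sox1, Neurog3, Nkx6-3 and Zic1) summed to 13.4, 10.1, 11.3 and 9.01 CPM in ESC replicates 1, 2, 5 and 6, also the reverse of the members' order, and to 1.58 to 2.15 CPM in Eo- and 0.163 to 0.224 CPM in Eo+. The sums alone do not show that cells of each type were present, and their part in the spread of the members was not tested.

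The remaining genes of the 2-cell-like state were taken from a list of 48 gene names. It gave 36 further loci, of which 26 passed the filter. Adjusted p-values below are from limma voom over all 17922 loci with Benjamini-Hochberg adjustment. In Eo+ vs ESC, 25 of the 26 fell and 1 did not pass the test (background 36.1% of all tested loci called lower). Against ESC 25 fell in Eo- as well (background 31.3%), and from Eo- to Eo+ 20 fell and 6 did not pass (background 24.6%). None rose in any comparison (0 by limma, edgeR and DESeq2, and 0 at an unadjusted p under 0.05 with each). The median log2 fold change of the list was -7.64, -4.89 and -2.76 in the 3 comparisons, beside 0.00239, 0.0156 and -0.0145 over all tested loci. The list was drawn up with results of these data known and its first 2 comparisons share the ESC libraries, so its direction is no independent evidence. Of its 26 loci, 23 passed the filter on low values through ESC alone. Both limits also apply to the adjusted p-values given below for single genes of the list.

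**Figure D3:**
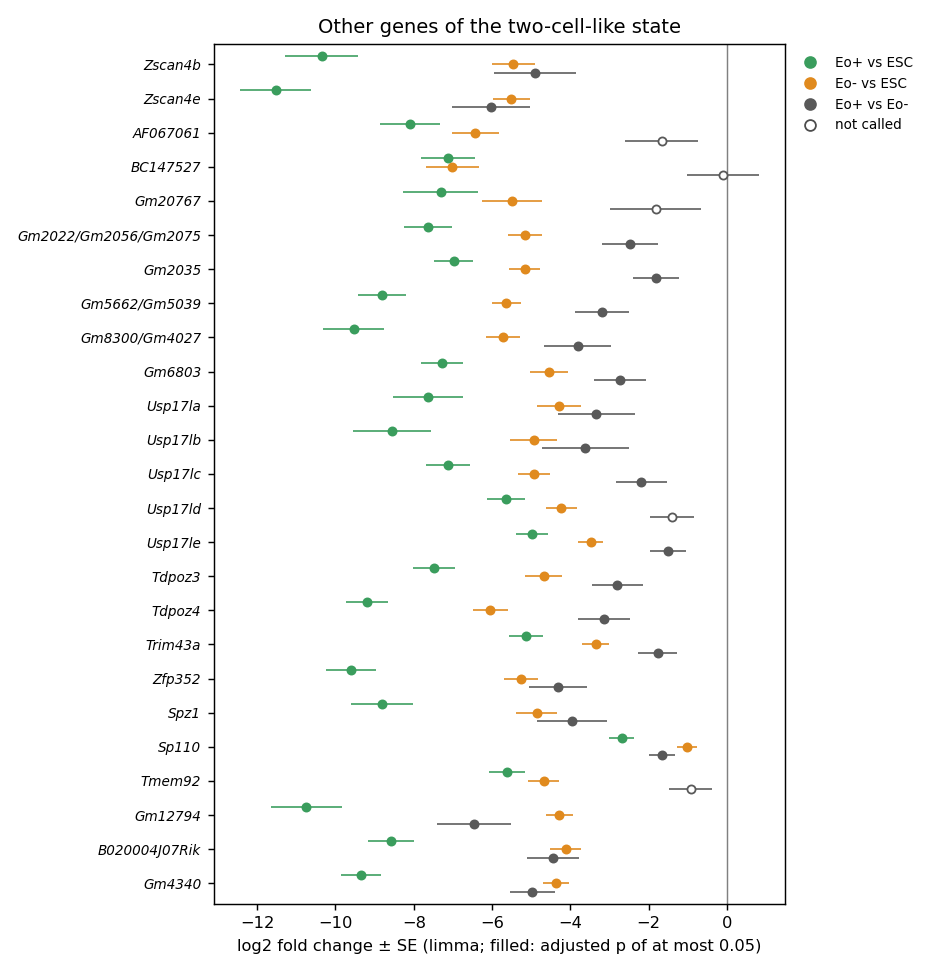
Fitted log2 fold change with its SE (x axis) of the 25 loci of other 2-cell-like genes that passed the test in at least 1 comparison; filled points have an adjusted p of at most 0.05. All points of Eo+ vs ESC and Eo- vs ESC lie to the left of 0 and are filled, and the open points are the 5 of these loci that did not pass in Eo+ vs Eo-.

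Zscan4b and Zscan4e, the other 2 tested copies of the Zscan4 family, fell in all 3 comparisons. Zscan4e averaged 3.25 ± 1.25 CPM in ESC, 0.0739 ± 0.0367 CPM in Eo- and 0.000778 CPM in Eo+, where it was seen in replicate 6 alone. Its log2 fold change in Eo- vs ESC was -5.51 ± 0.47 (SE, adjusted p = 5.1e-07). Zscan4b was at 1.70 ± 0.743 CPM in ESC and at 2.34% of that in Eo-. In its promoter window TGATTNAAT stood on the strand opposite to the gene. Zscan4a and the pseudogenes Zscan4-ps1, Zscan4-ps2 and Zscan4-ps3 had no locus of their own under the matching rule, nor had Dux.

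Of the neighbours of the Tcstv genes, AF067061, BC147527 and Gm20767 fell in both fractions against ESC and did not pass the test between the fractions. AF067061 went from 1.13 ± 0.415 CPM in ESC to 0.0125 ± 0.00548 CPM in Eo- (log2 fold change -6.43 ± 0.61, adjusted p = 1.1e-06). Its level in Eo+ was 0.00505 ± 0.00489 CPM (adjusted p = 0.16 against Eo-). BC147527 averaged 0.00938 ± 0.0105 CPM in Eo- and 0.00730 ± 0.00827 CPM in Eo+ (adjusted p = 0.93 between them). Each mean rests largely on replicate 5, without which it was 0.00443 CPM in Eo- and 0.00317 CPM in Eo+. For Gm20767 the adjusted p between the fractions was 0.21, and without Eo+ replicate 5 it was 0.039 with a log2 fold change of -2.97. Gm21818 is a gene of the same cluster that is not on the list and shares 32 of the 100-base windows of Tcstv3. It fell between the fractions (log2 fold change -2.74, adjusted p = 0.022), from 0.00636 CPM in Eo- to 0 CPM in Eo+. The Eo- mean is little above the worth of 3 counts, so this call rests on few counts.

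Genes resembling Eif1a, the neighbours of Gm2016, included the list locus with the highest mean CPM in ESC. The locus of Gm5662 and Gm5039 averaged 22.4 ± 6.75 CPM in ESC, 0.446 ± 0.144 CPM in Eo- and 0.0480 ± 0.0125 CPM in Eo+. Against ESC its log2 fold change was -5.63 ± 0.36 in Eo- (adjusted p = 4.1e-08). The locus of Gm8300 and Gm4027 was at 9.61 ± 2.92 CPM in ESC and at 2.07% of that in Eo-. All 5 tested loci of this group fell in all 3 comparisons, and all 5 had the order 1, 5, 2, 6 in ESC. Among them Gm6803 held only 13 pooled counts in Eo- and 0 in Eo+. For Gm2035 the call between the fractions (adjusted p = 0.022) was lost without Eo- replicate 5 (0.054), without Eo+ replicate 2 (0.059) and without Eo+ replicate 5 (0.070).

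The Usp17 deubiquitinases remove ubiquitin from other proteins. Usp17la, Usp17lb, Usp17lc, Usp17ld and Usp17le were at 3.52% to 8.64% of ESC in Eo- and at 0.732% to 3.37% in Eo+. The lowest Eo+ share, that of Usp17lb, rests largely on 1 library (0.0520 CPM, group mean 0.0166 ± 0.0243 CPM). Each of the 5 genes fell in both fractions against ESC. Between the fractions 4 of the 5 fell, and Usp17ld missed the threshold (log2 fold change -1.41 ± 0.57, adjusted p = 0.057, 0.021 by edgeR, 0.0096 by DESeq2, 0.025 with the replicate number as a block over all libraries and 0.066 with the block in the sorted fractions alone). The calls of Usp17lb and Usp17le were lost without Eo+ replicate 2 (adjusted p = 0.057) and without Eo+ replicate 1 (adjusted p = 0.063).

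Tdpoz3 and Tdpoz4, which carry TD and POZ domains, and the tripartite motif gene Trim43a also fell in all 3 comparisons, but not 1 of them had the members' order among the ESC libraries. Tdpoz4 was highest in ESC replicate 1, in the order 2, 5, 6, 1, and its highest library was 1.33 times the lowest. In Eo+ both Tdpoz genes were listed at 0 in all 4 libraries. Pooled over Eo- they held 15 (Tdpoz3) and 21 (Tdpoz4) counts, so their calls between the fractions rest on few counts. The zinc finger gene Zfp352 went from 0.713 ± 0.142 CPM in ESC to 0.0226 ± 0.0197 CPM in Eo- (log2 fold change -5.27 ± 0.44, adjusted p = 4.0e-07), with the ESC order 5, 2, 1, 6.

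Sp110, a nuclear body protein, kept 49.0% of its ESC level in Eo- (log2 fold change -1.03 ± 0.26, adjusted p = 0.0033) and 16.5% in Eo+. The locus counted as Tmem92, which also holds AA623943, Gm11543, Gm11545 and Gm11546, fell to 3.81% in Eo- and 2.08% in Eo+, a difference between the fractions that did not pass (adjusted p = 0.18, 0.059 by edgeR, 0.028 by DESeq2, 0.011 with the replicate number as a block and 0.030 with the block in the sorted fractions alone).

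Other genes were ranked by how closely their log2(CPM + 0.1) followed that of the summed members over the 12 libraries. The 8 loci ranked first, among those with a symbol and at least 1 CPM in some group, had a Pearson correlation of 0.991 to 0.998 with it. They were the loci of Gm12794 and Gm12800, Clca4, Calml4, Adh4, that of Gm5039, Gm5662 and Gm8332, then Gm26954, Rhox1 and Cysltr2. The 12 points are not independent, since they fall into 3 groups and the libraries of a group share their culture. The locus of Gm12794 and Gm12800 averaged 7.82 ± 2.65 CPM in ESC, 0.421 ± 0.237 CPM in Eo- and 0.00402 ± 0.00222 CPM in Eo+. Calml4, a calmodulin-like gene, was at 11.4 ± 2.52, 0.628 ± 0.0257 and 0.0269 ± 0.0182 CPM. Of these 8 loci, 2 belong to the list of 2-cell-like genes. With log2(CPM + 1), 4 of the 8 remained among the first 8, and with Spearman's rank correlation 1 did, the Gm5039 locus.

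**Figure D4:**
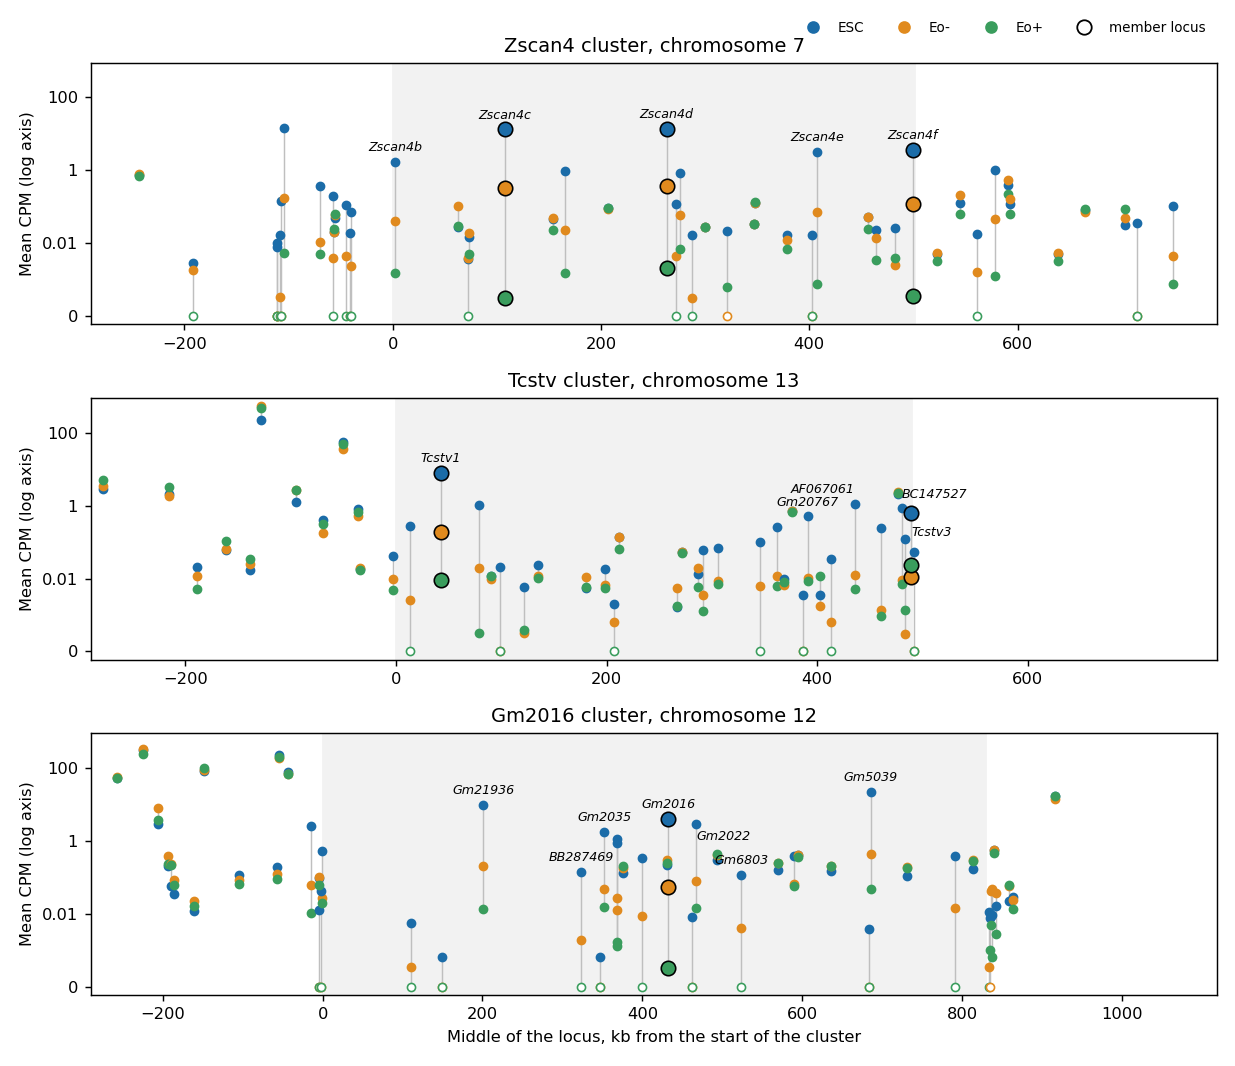
Mean CPM (log axis, means of 0 on the lowest line as open points) in ESC, Eo- and Eo+ of every counted locus in and within 250 kb of the Zscan4, Tcstv and Gm2016 clusters, against its distance from the start of the cluster in kb. Grey shading spans each cluster and larger points with a black rim are members; loci whose 3 points coincide stand between loci that are separated by factors of 10 and more.

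Loci inside the 3 clusters did not all share the members' pattern. The Zscan4 cluster spanned 502 kb, and of its 4 tested loci that are not members 3 fell in Eo+ vs ESC (background 36.1%). Of the 4, 2 belong to the list and 2 passed the filter on low values through ESC alone. Those that fell were Zscan4b, Zscan4e and an unnamed locus antisense to Zscan4f, and the fourth, an unnamed locus antisense to Zscan4c, did not pass. Counting was strand-specific, so these antisense loci could be read apart from the genes. The locus antisense to Zscan4c held 141, 161 and 66 pooled counts in ESC, Eo- and Eo+, where Zscan4c held 39163, 1012 and 1. The locus antisense to Zscan4f held 377, 649 and 186 pooled counts and rose in Eo- vs ESC (log2 fold change 0.72, adjusted p = 0.020), where Zscan4f held 10994, 368 and 1. Of the 4 tested loci within 250 kb outside this cluster, all unnamed, 3 fell and 1 rose in Eo+ vs ESC (background 36.1% lower and 35.8% higher), and 2 of the 4 passed the filter on low values through ESC alone. One that fell, a non-annotated locus on the minus strand with its middle 104 kb before the start of the cluster (XLOC_063673), averaged 14.1 CPM in ESC, 0.172 CPM in Eo- and 0.00539 CPM in Eo+. Its ESC mean was close to that of Zscan4d, and it fell in all 3 comparisons (log2 fold change -6.32 ± 0.50 in Eo- vs ESC, adjusted p = 2.6e-07).

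In the Tcstv cluster, which spanned 490 kb, 6 of the 7 tested loci that are not members fell in both fractions against ESC (background 36.1% in Eo+ and 31.3% in Eo-). Of the 7, 3 belong to the list and 6 passed the filter on low values through ESC alone. Those that fell were AF067061, BC147527, Gm20767, Gm21818, D13Ertd608e and an unnamed locus, which lies within the span of the Tcstv1 locus on the same strand and went from 1.03 CPM in ESC to 0.0196 CPM in Eo-. The other unnamed locus of the cluster averaged 0.699, 0.717 and 0.655 CPM in ESC, Eo- and Eo+ (adjusted p = 0.76 for Eo- and 0.99 for Eo+ against ESC). Between the fractions 2 of the 7 fell (background 24.6%), Gm21818 and the unnamed locus within the span of Tcstv1. D13Ertd608e overlaps the Tcstv1 locus on the opposite strand and held 817, 8 and 0 pooled counts. Among the 5 tested loci within 250 kb of this cluster, 4 rose in Eo+ vs ESC (background 35.8%) and 0 fell by limma, edgeR or DESeq2, with 0 at an unadjusted p under 0.05. In Eo- vs ESC 2 of them rose (background 30.9%) and 1, Zfp131, fell (background 31.3%, log2 fold change -0.57, adjusted p = 0.00033).

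In the Gm2016 cluster (829 kb), 7 of 8 tested loci that are not members fell in both fractions against ESC (background 36.1% in Eo+ and 31.3% in Eo-) and 6 in Eo+ vs Eo- (background 24.6%). Of the 8, 5 belong to the list, and 7 passed the filter on low values through ESC alone. The exception was an unnamed locus at 0.130 CPM in ESC and 0.201 CPM in Eo+, which rose in Eo+ vs ESC (log2 fold change 0.72, adjusted p = 0.043). Of the 8 tested loci within 250 kb outside, 3 fell and 1 rose in Eo+ vs ESC (background 36.1% lower and 35.8% higher).

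Genes known to promote or restrain the 2-cell-like state were measured in the same libraries. Of 28 such genes, all tested, 12 fell and 5 rose in Eo+ against ESC, 13 fell and 5 rose in Eo- against ESC, and 9 fell and 4 rose between the fractions. The median log2 fold changes of the list were -0.192, -0.142 and -0.0719. The background of all tested loci was 36.1%, 31.3% and 24.6% called lower and 35.8%, 30.9% and 23.0% called higher. With the replicate number as a block, 17 were called between the fractions, 12 of them lower, and 16 with the block in the sorted fractions alone, 11 of them lower.

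**Figure D5:**
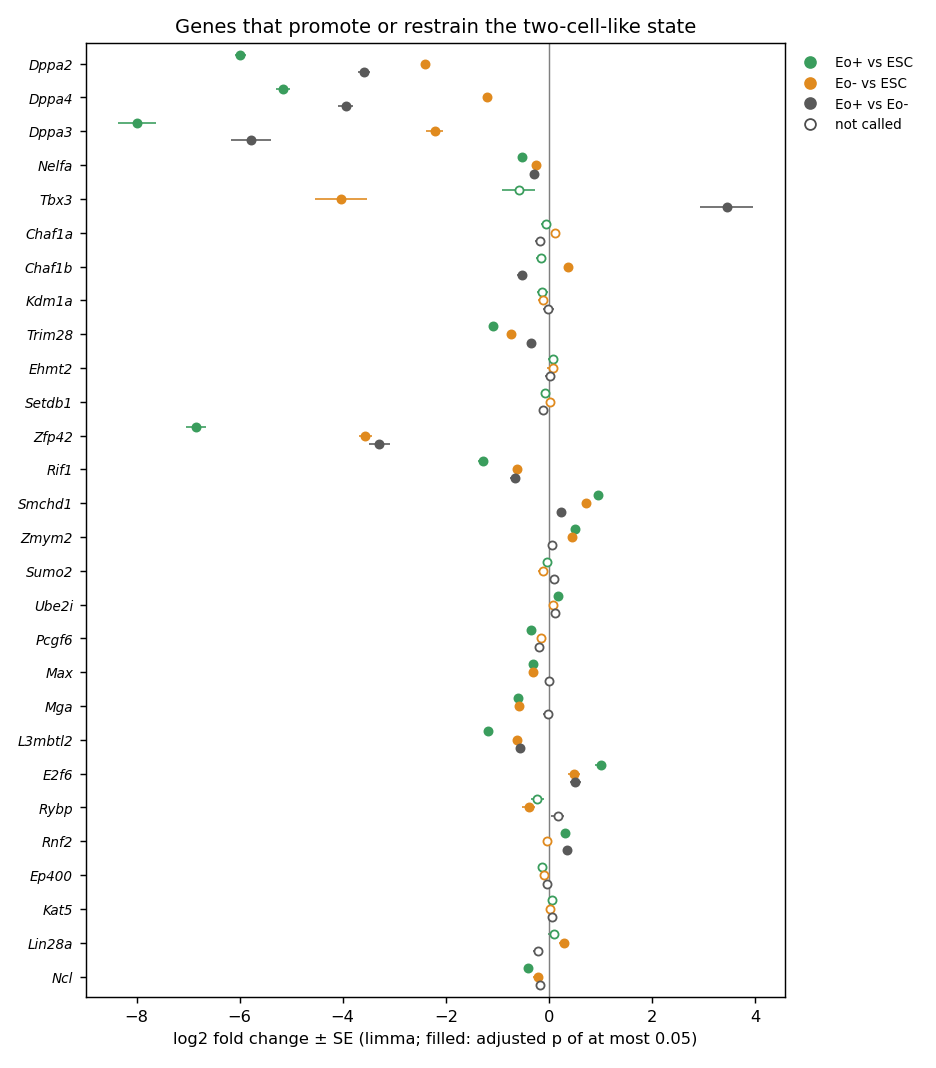
Fitted log2 fold change with its SE (x axis) of 28 genes that promote (first 5) or restrain the 2-cell-like state in the 3 comparisons; filled points have an adjusted p of at most 0.05. Dppa2, Dppa4, Dppa3 and Zfp42 lie far to the left of 0, Tbx3 lies there in Eo- alone, and most of the others lie within 1 log2 unit of 0.

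Among the activators, Dppa2 and Dppa4, a pair of chromatin factors that act upstream of Dux, fell in all 3 comparisons. Dppa2 averaged 147 ± 6.11 CPM in ESC, 27.9 ± 1.38 CPM in Eo- and 2.33 ± 0.231 CPM in Eo+, and Dppa4 averaged 147 ± 10.9, 64.1 ± 6.20 and 4.17 ± 0.632 CPM. In Eo-, Dppa4 was thus at 43.5% of ESC (log2 fold change -1.21 ± 0.08, adjusted p = 6.7e-08), where the summed members were at 2.45%. Dppa3, a maternal factor kept in naive ESC, was at 31.1 ± 4.76 CPM in ESC and at 21.5% and 0.429% of that in Eo- and Eo+. Its lowest ESC library was replicate 1, but its order, 1, 6, 5, 2, was not that of the members. Tbx3, a T-box factor, averaged 74.0 ± 15.4 CPM in ESC, 4.87 ± 2.82 CPM in Eo- and 54.5 ± 27.0 CPM in Eo+. It fell in Eo- vs ESC (adjusted p = 1.3e-05), rose in Eo+ vs Eo- (adjusted p = 0.00011) and did not pass in Eo+ vs ESC (adjusted p = 0.12, and 0.030 without Eo+ replicate 1), so its direction between the fractions was opposite to that of 5 members. Nelfa, a subunit of the negative elongation factor, fell by 0.25 on the log2 scale in Eo- and by 0.53 in Eo+ against ESC.

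Among the genes that restrain the state, both directions were found. Zfp42 (Rex1) fell furthest, from 503 ± 70.1 CPM in ESC to 42.7 ± 7.36 CPM in Eo- and 4.36 ± 0.438 CPM in Eo+. Trim28, the corepressor of KRAB zinc finger proteins, was at 60.2% of ESC in Eo- and 47.6% in Eo+ (adjusted p = 9.0e-06 and 1.3e-07). Rif1 was at 65.4% and 41.1%, and L3mbtl2, a subunit of a variant Polycomb complex, at 65.1% and 44.4%, and both fell in all 3 comparisons. Smchd1, a chromatin protein that silences Dux, rose from 59.6 ± 3.95 CPM to 98.4 ± 7.93 CPM in Eo- and 115 ± 4.74 CPM in Eo+ (log2 fold change 0.72 ± 0.07 and 0.95 ± 0.07, adjusted p = 1.9e-06 and 5.8e-08). Zmym2 rose to 136% and 142% of ESC, and E2f6, which recruits a variant Polycomb complex, rose to 140% and 201%. Chaf1a, the large subunit of the chromatin assembly factor, averaged 142 ± 10.1, 154 ± 15.4 and 136 ± 11.3 CPM and did not pass in any comparison (adjusted p = 0.25 for Eo- and 0.51 for Eo+ against ESC, and 0.096 between the fractions, the last 0.018 with the replicate number as a block). Kdm1a, Setdb1 and the histone methyltransferase Ehmt2 did not pass in any comparison either, with log2 fold changes between -0.13 and 0.08.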

How the data were processed

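Poly(A) RNA of 12 libraries (3 groups of 4, grouped by the sample labels) was sequenced as stranded pairs of 100-base reads on 2 lanes each. According to the study's methods and the submitters' processing notes, the authors aligned reads with STAR to mm10, merged Cufflinks 2.2.1 assemblies with Ensembl and deposited raw read counts per locus from HTSeq 0.6.1 in union mode, which sets aside alignments that are not unique. The notes give STAR 2.0.4, and the assembly deposited by the authors was used to name loci. The authors' table of normalized values, in which counts are scaled between libraries (a signal per locus), served only to define 1 alternative set of loci.

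Members were the loci whose transcripts carry a member's name with class code = or j. The members and the gene lists were chosen with earlier results of these data known. Protein-coding, lncRNA and multi-exon non-annotated loci (at least 2 exons and 200 bases, types from GENCODE release M21) with a mean FPKM above 0.1 in at least 1 group were tested, 17922 in all (14216, 993 and 2713). Counts were scaled by TMM (edgeR 4.0.16) and fitted over all 12 libraries with limma voom (limma 3.58.1, R 4.3.3), with Benjamini-Hochberg adjustment over all tested loci and a threshold of 0.05. The study's methods give voom, limma and this adjustment for these libraries, and the TMM scaling was chosen here. Members were described without tests. The values of 1 listed gene are not reported here. The fit was first tested on simulated counts.

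Every member, the other tested genes of both lists, the 8 loci most like the members and, by position, loci within 250 kb of a cluster could be named. Intervals on pooled counts are exact Poisson intervals (95%, SciPy 1.17.1). P-values of the main fit measure the spread between the 4 differentiation sets of this 1 line within groups, pooled over the groups. For loci at 0 in a whole group this spread depends on the offset added to counts. After group means were removed, same-numbered Eo- and Eo+ libraries correlated at 0.316 to 0.634 over loci, each best with its own number, so the sorted fractions count as paired. Those of ESC correlated at -0.122 to 0.352 with the sorted libraries and were not paired. The main fit does not use the pairing of the sorted fractions, and the replicate block does. Alternatives were edgeR's quasi-likelihood test, DESeq2 1.42.0, other scalings and filters, a replicate block and the removal of single libraries.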

Additional observations from a re-analysis of the deposited data

Results flagged for a closer look

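In 18 of 192 groups of 4 libraries examined, 1 library stood apart from the other 3 by Dixon's criterion, which chance gives in about 1 in 20 groups of normal values. A library with counts beside 3 libraries at 0 always meets the criterion. In Eo+ this was mainly a library with a few counts beside libraries at 0, namely Zscan4c in replicate 2 (0.00129 CPM), Zscan4d in replicate 5 (0.00843 CPM), Zscan4f in replicate 5 (0.00141 CPM), Gm2016 in replicate 1 (0.00127 CPM), Zscan4b (0.00623 CPM), Zscan4e (0.00311 CPM) and B020004J07Rik (0.00156 CPM) in replicate 6, and Zfp352 (0.00129 CPM) and Spz1 (0.0129 CPM) in replicate 2. Eo+ replicate 5 was also high for the summed Zscan4c, Zscan4d and Zscan4f (0.00984 CPM against at most 0.00129 CPM), BC147527 (0.0197 CPM against at most 0.00382 CPM), Gm20767 (0.0309 CPM against at most 0.00382 CPM) and Sp110 (0.527 CPM against at most 0.244 CPM). Eo+ replicate 6 was high for Dppa2 (2.67 CPM against 2.17 to 2.24 CPM) and low for Smchd1 (108 CPM against 117 to 119 CPM). Eo- replicate 6 was high for Zscan4b (0.0790 CPM against at most 0.0283 CPM) and Lin28a (771 CPM against 654 to 661 CPM). ESC replicate 6 was high for B020004J07Rik (0.534 CPM against 0.285 to 0.310 CPM).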

How the results depend on the processing

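Of the comparisons of list genes recomputed under the alternatives, none reversed, and 5, 5 and 13 of 54 tested list loci crossed the threshold under at least 1 alternative for Eo+ and Eo- against ESC and between the fractions. The number of other 2-cell-like genes called was most changed by a filter of 1 CPM in 4 libraries, which left 14 of the 26 loci and gave 13, 13 and 12 called in these comparisons in place of 25, 25 and 20. Without a filter the first was 33. Leaving out single libraries gave 25 throughout against ESC and 18 to 22 between the fractions. For the regulators it gave 16 to 18, 17 to 18 and 13 to 14, against 17, 18 and 13 with all libraries. With the replicate number as a replicate block, the number of 2-cell-like genes called between the fractions was 22, and 21 with the sorted fractions fitted alone (an alternative added after seeing the data). For the regulators it was 17 and 16 in place of 13, the genes that crossed being Chaf1a, Ncl, Pcgf6 and Rybp with the block over all libraries and Chaf1a, Lin28a and Rybp with the fractions alone. Against ESC the block gave 25 and 25 for the 2-cell-like genes and 19 and 18 for the regulators.

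The log2 ratio of the summed members was -10.2 for Eo+ against ESC and -4.90 between the fractions. It moved to -13.4 and -8.20 for the 3 Zscan4 loci alone and to -8.01 and -2.61 for the 2 Tcstv loci alone, since the Eo+ counts are mostly of Tcstv loci. The values of the Zscan4 loci rest mainly on Eo+ replicate 5, which held 7 of their 8 pooled Eo+ counts. For the summed members, leaving out single libraries gave -10.6 to -9.91, and -5.27 to -4.56 between the fractions. In Eo- vs ESC the ratio was -5.35 and stayed between -5.66 and -5.12. Of the 8 loci most like the members, 4 stayed among the first 8 with a pseudocount of 1 and 1 with Spearman's correlation. Depth limits the Eo+ values: Zscan4c, Zscan4f and Gm2016 rest on 1 count each.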
